A study of Rattus norvegicus with 6 samples.

Results

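Claudins are the membrane proteins that form the strands of tight junctions, the seals between neighbouring epithelial, endothelial, meningeal or myelin-forming cells. Each cell type uses its own mix of them, and some claudins seal the space between cells while others form pores for ions or water. Most bind with their tail to the scaffold protein ZO-1, the product of Tjp1. In the pituitary, tight junctions are known from the folliculostellate cells that line small follicles, and the gland is wrapped in meninges. Here 9 claudin genes, Cldn1, Cldn3, Cldn4, Cldn5, Cldn9, Cldn10, Cldn11, Cldn12 and Cldn19, and Tjp1 were followed in pituitary RNA. They are 10 of the 33294 gene symbols in the count files, matched by symbol. All 10 passed the filter on low counts that kept 17292 genes. Cldn1, Cldn11 and Cldn19 were selected on their change between the groups in these same libraries. Their change is given as a description with no p-value, and the counts of calls that include them support nothing. The other 7 genes were added as relatives.

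The libraries were made from pituitary gland of male Sprague-Dawley rats aged 11 weeks, with 3 nicotine libraries and 3 control libraries. The sources used here do not say whether the whole gland was taken. The nicotine rats were born to dams that received nicotine tartrate at 6 mg/kg per day from a pump under the skin, and the control rats to dams whose pump held saline. Pumps were placed during pregnancy, and by their rated duration they could run past birth. Each library is labelled as pituitary gland, although the extraction text of the labels describes testis. Whether rats of a group came from separate litters is not given in the sources used here, so the spread between libraries may include litters. The dams were what was treated. If rats of a group shared a litter, nicotine and litter could not be told apart in any difference given here. The standard errors and p-values would then leave out the spread between litters and be too small.

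Totals ran from 28318383 to 85977002 counts per library, and the median nicotine total was 1.70 times the median control total. The library that stood most apart was nicotine replicate 2, whose mean distance to the rest over log2 CPM was 90.8, where the other libraries had 72.0 to 80.7. The hormone gene Gh1 reached between 52400 and 116000 CPM in every library, while 5 testis germ cell markers summed to at most 0.0792 CPM, 2 of the 5 being at 0 in all libraries, so the RNA carried the markers of the labelled tissue. A list of sequenced reads in the supplements of the study gives fewer reads to the nicotine libraries than to the control libraries, whereas the deposited counts run the other way. The total counts of all nicotine libraries exceed the reads listed for them, and the counts become nearly proportional to the listed reads in all 6 libraries if the groups of that list are exchanged. Whether the list or the sample labels hold the exchange cannot be told apart from the files. The labels of the deposited samples were used, and if they were the ones exchanged, the sign of every difference given here would turn.

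The upstream sequences of Cldn1 and Cldn11 are shown because both genes were lower in every nicotine library. RefSeq promoter windows (build GRCr8) matched 8 of the 10 genes, and for 5 of these the window ended at the start of the gene. Each run holds the 250 bases before the start, 5′ to 3′ on the strand of the gene, at chr11:87926126-87926375 on the plus strand for Cldn1 and at chr2:114149540-114149789 on the minus strand for Cldn11. Capitals mark the GC box GGGCGG and the CCAAT box CCAAT, searched on both strands.
Cldn1: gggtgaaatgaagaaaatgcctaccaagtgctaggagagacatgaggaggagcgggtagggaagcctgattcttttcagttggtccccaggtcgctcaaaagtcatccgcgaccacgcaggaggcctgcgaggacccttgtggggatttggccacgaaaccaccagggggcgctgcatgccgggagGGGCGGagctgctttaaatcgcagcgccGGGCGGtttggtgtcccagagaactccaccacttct
Cldn11: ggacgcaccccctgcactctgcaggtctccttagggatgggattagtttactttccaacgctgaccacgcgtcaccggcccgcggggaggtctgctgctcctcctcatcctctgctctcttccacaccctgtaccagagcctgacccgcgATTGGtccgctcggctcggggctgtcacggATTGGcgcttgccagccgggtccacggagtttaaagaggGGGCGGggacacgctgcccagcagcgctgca
In Cldn1 the GC boxes began 64 and 36 bases before the start. In Cldn11 a GC box began 31 bases and CCAAT boxes 100 and 70 bases before the start. The GC box was held by 4 of the 5 windows that ended at a gene start and by 30.5% of all 33469 windows, and the CCAAT box by 34% of all. The values over all windows were not limited to windows that end at a gene start, so these sets are unlike and no enrichment is read from them. Neither TATAAA, the TATA box, nor CAGGTG, the E box bound by Snail-type repressors, was found in these sequences, against 12.9% and 15.9% of all windows. The GC content was 59.2% for Cldn1 and 64.8% for Cldn11, with a median of 51.2% over all windows. These matches describe the letters and were not tested against expression.

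Levels are given as CPM after TMM scaling, the counts of a gene set against the size of its library. They are compared for 1 gene across libraries only, because no exon lengths were at hand to set genes against each other. Fold changes are nicotine over control on the log2 scale from edgeR, with a standard error (SE). Calls took the study's own limits, an adjusted p under 0.1 together with more than a 1.5-fold difference. By edgeR's quasi-likelihood test 0 of the 10 genes were called, as were 0% of all 17292 genes. DESeq2 called 3 of the 10, Cldn1, Cldn11 and Cldn19, and 0.339% of the 18001 genes to which it gave an adjusted p. Nicotine and control libraries did not overlap for these same 3 genes, and for 11.3% of all genes tested. As these genes were picked for this contrast, nothing is read from these counts. The plot of levels by library shows all 10 genes.

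**Figure D1:**
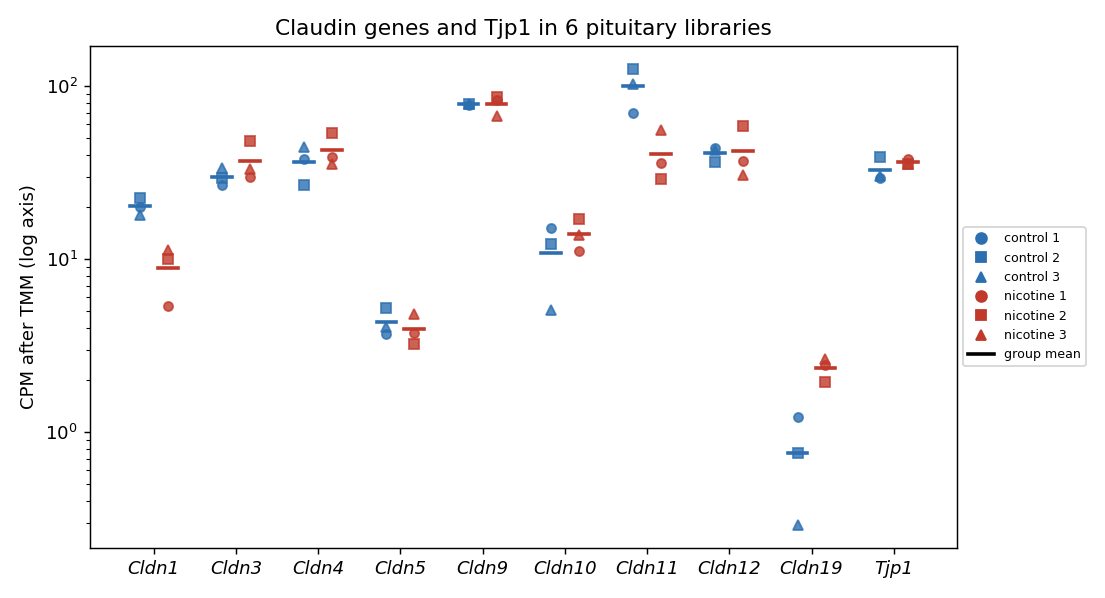
CPM after TMM (log axis) of the 9 claudin genes and Tjp1 in each library, control in blue and nicotine in red, with a marker for each replicate number and a bar at the group mean (3 libraries per group). Cldn1 and Cldn11 lay lower and Cldn19 higher in all nicotine libraries, the change on which they were selected, and the groups of the other 7 genes overlapped.

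Cldn11 encodes a claudin of oligodendrocyte myelin, of Sertoli cells and of the arachnoid barrier layer of the meninges. It stood at 70.1, 126 and 103 CPM in control replicates 1, 2 and 3, and at 36.1, 28.9 and 55.8 CPM in nicotine replicates 1, 2 and 3. The highest nicotine library was thus below the lowest control library. The means were 99.9 ± 28.2 CPM (SD, n = 3) in controls and 40.3 ± 13.9 CPM (SD, n = 3) after nicotine, a log2 fold change of -1.31 (SE 0.27), or 2.48-fold lower. It lay between -1.62 and -1.11 when each library was left out in turn.

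Cldn1 encodes a sealing claudin of the epidermis and other barrier epithelia, also known from the arachnoid. Its level was 19.9, 22.7 and 18.0 CPM in control replicates 1, 2 and 3. It was 5.37, 10 and 11.3 CPM in nicotine replicates 1, 2 and 3, with nicotine replicate 1 lowest of all. Group means of 20.2 ± 2.38 CPM in controls and 8.90 ± 3.13 CPM after nicotine (SD, n = 3 each) gave a log2 fold change of -1.18 (SE 0.26). Without nicotine replicate 1 it was -0.92. Although both genes were lower, their lowest libraries differed, since Cldn11 was lowest in nicotine replicate 2. The root mean square difference between their log2 profiles, each centred on its own mean over the 6 libraries, was 0.42.

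Cldn19 encodes a claudin of Schwann cell myelin, kidney tubules and retinal pigment epithelium. It was the least abundant in counts, with 33, 40 and 11 counts in control replicates 1, 2 and 3 and 115, 181 and 160 counts in nicotine replicates 1, 2 and 3. These correspond to 1.22, 0.757 and 0.291 CPM in controls and to 2.44, 1.96 and 2.64 CPM after nicotine. The groups did not overlap, and the nicotine libraries spread less. The log2 fold change was 1.69 (SE 0.41), or 3.22-fold higher. It was 1.30 without control replicate 3, the library with the fewest counts, and was 1.49 when all libraries were thinned to the smallest.

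Among the epithelial claudins, Cldn3 and Cldn4 are the receptors of a Clostridium toxin and lie next to each other in the gene order of the RefSeq table. Cldn3 was at 26.7, 29.3 and 33.5 CPM in control replicates 1, 2 and 3 and at 29.7, 48.4 and 33.1 CPM in nicotine replicates 1, 2 and 3. Cldn4 was at 38.1, 26.7 and 44.6 CPM in the controls and at 39.1, 53.4 and 35.5 CPM in the nicotine libraries, in the same order. Both peaked in nicotine replicate 2, and the groups overlapped. Their log2 fold changes were 0.31 (SE 0.20) and 0.23 (SE 0.22), with adjusted p of 0.832 and 0.854 from edgeR. Without nicotine replicate 2 these values were 0.06 and 0.02. The root mean square difference between the 2 centred profiles was 0.22. Of 4 epithelial marker genes, Epcam, Cdh1, Krt8 and Krt18, 0 were called, the median log2 fold change was 0.02, and the sums were 712 to 774 CPM after nicotine and 739 to 839 CPM in controls.

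Cldn9, known from the inner ear, was nearly level in the controls, at 77.8, 79.2 and 79.3 CPM. In nicotine replicates 1, 2 and 3 it was at 83.5, 86.4 and 67.5 CPM, on both sides of the control values. The log2 fold change of 0.01 (SE 0.15, adjusted p = 0.996 from edgeR) was the smallest of the 10 genes. Cldn12, an atypical claudin without the tail motif that binds ZO-1, had means of 41.1 ± 4.19 CPM in controls and 42.2 ± 14.8 CPM after nicotine (SD, n = 3 each). Its wide nicotine spread came from 59.0 CPM in nicotine replicate 2 against 36.7 and 30.8 CPM in replicates 1 and 3. The log2 fold change was 0.04 (SE 0.23, adjusted p = 0.979 from edgeR), and -0.29 without nicotine replicate 2.

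Cldn10 forms paracellular ion channels, with kidney and skin as its best known sites. It was at 15.1, 12.3 and 5.05 CPM in control replicates 1, 2 and 3 and at 11.2, 17.1 and 13.8 CPM in nicotine replicates 1, 2 and 3. Control replicate 3 stood well below the other 5 libraries. The log2 fold change was 0.38 (SE 0.34, adjusted p = 0.849 from edgeR), and 0.04 without control replicate 3. Its SD of log2 CPM within groups was larger than that of 97.8% of the 1000 genes nearest to it in mean log2 CPM. For Cldn9 and Tjp1 this share was 20.1% and 25.6%.

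Cldn5 is the claudin of endothelium and the main seal of the blood-brain barrier, while the vessels of the anterior pituitary are fenestrated. It was at 3.69, 5.20 and 4.07 CPM in control replicates 1, 2 and 3 and at 3.76, 3.25 and 4.84 CPM in nicotine replicates 1, 2 and 3. The groups overlapped, with a log2 fold change of -0.15 (SE 0.25, adjusted p = 0.923 from edgeR). All 10 endothelial markers had positive log2 fold changes, with a median of 0.44, against 0.007 over all genes tested. Their summed level was 232 to 390 CPM after nicotine and 193 to 265 CPM in controls. None of these markers was called in edgeR or DESeq2, 5 had an unadjusted p under 0.05 (6.14% of all genes tested), and 4 did not overlap between groups (11.3% of all genes tested). Plvap, which builds the diaphragms of fenestrated endothelium, was at 45.5, 61.1 and 46.6 CPM in the controls and at 83.7, 61.7 and 105 CPM in the nicotine libraries (log2 fold change 0.71, SE 0.21, adjusted p = 0.760 from edgeR). Whether the value of Cldn5 differed from those of the markers was not tested.

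Tjp1, the scaffold that ties claudins to actin, was at 29.6, 38.7 and 30.4 CPM in control replicates 1, 2 and 3. In nicotine replicates 1, 2 and 3 it was at 37.9, 35.4 and 35.5 CPM, within the range of the controls. The log2 fold change was 0.14 (SE 0.16, adjusted p = 0.881 from edgeR). Across the 7 genes that were not selected on their change, adjusted p ran from 0.832 to 0.996 and 0 had an unadjusted p under 0.05, which 6.14% of all genes tested had. DESeq2 called 0 of the 7. With 3 libraries per group, these values do not show that the levels were equal.

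The count files hold 19 further claudin symbols. Of these, 8 had no count in any library, among them Cldn16, Cldn18 and Cldn25, and 7 passed the filter. None of the 7 was called in edgeR or DESeq2, with 3 higher, 4 lower and a median log2 fold change of -0.13. Cldn2, a pore-forming claudin of leaky epithelia, had the smallest p. It was at 2.92, 0.832 and 0.977 CPM in control replicates 1, 2 and 3 and at 2.12, 5.96 and 3.88 CPM in nicotine replicates 1, 2 and 3, so the groups overlapped (log2 fold change 1.46, SE 0.49, adjusted p = 0.760 from edgeR). Cldn22 was the one further claudin without overlap, at 1.55, 2.14 and 1.74 CPM in the controls and 1.08, 0.478 and 1.54 CPM after nicotine. Its log2 fold change was -0.88 (SE 0.41, adjusted p = 0.807 from edgeR). Cldn6 and Cldn7, which are epithelial claudins, had log2 fold changes of 0.26 and -0.22, with overlapping groups. Cldn6 is the neighbour of Cldn9 in the gene order.

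Other parts of the junction were followed through 14 membrane proteins and 25 scaffold and polarity proteins, of which 38 were found by symbol and all 38 were tested. None was called in edgeR or in DESeq2. By direction 29 were higher and 9 lower, where 8824 of all 17292 genes tested were higher. The median log2 fold change was 0.10, against 0.007 over all genes tested. Unadjusted p was under 0.05 for 3 higher and 2 lower genes, against 6.14% of all genes tested. Without overlap between groups were 9 genes, or 23.7%, against 11.3% of all genes tested.

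Among the membrane proteins, occludin (Ocln) had a log2 fold change of 0.05 (SE 0.19) and the junctional adhesion molecule gene Jam2 had one of -0.02 (SE 0.20). Clmp, an adhesion molecule related to the coxsackievirus receptor, was lower in each nicotine library, at 1.82, 1.24 and 2.41 CPM in nicotine replicates 1, 2 and 3 and 2.66, 4.69 and 3.06 CPM in control replicates 1, 2 and 3. Its log2 fold change was -0.97 (SE 0.33, adjusted p = 0.760 from edgeR). Esam, an endothelial adhesion molecule, had a log2 fold change of 0.52 (SE 0.23, adjusted p = 0.806 from edgeR) without overlap.

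Of the scaffold genes, 21 of 24 had positive values, against 8824 of all 17292 genes tested. Their median log2 fold change was 0.13, against 0.007 over all genes tested. Many of these values lay within 1 SE of 0, such as that of Afdn (0.02, SE 0.15). Magi1 (log2 fold change 0.44, SE 0.17) and Pard3b (0.61, SE 0.26), a membrane scaffold and a polarity protein, did not overlap between groups, and their adjusted p from edgeR was 0.798 and 0.806. Ybx3 encodes ZONAB, the transcription factor that ZO-1 holds at the junction, and it went the other way. It was at 197, 217 and 241 CPM in control replicates 1, 2 and 3 and at 116, 98.9 and 193 CPM in nicotine replicates 1, 2 and 3. The groups did not overlap (log2 fold change -0.68, SE 0.24, adjusted p = 0.760 from edgeR). Tjp3, a relative of Tjp1, had a log2 fold change of 0.02 (SE 0.25). The plot of fold changes sets these genes beside the claudins.

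**Figure D2:**
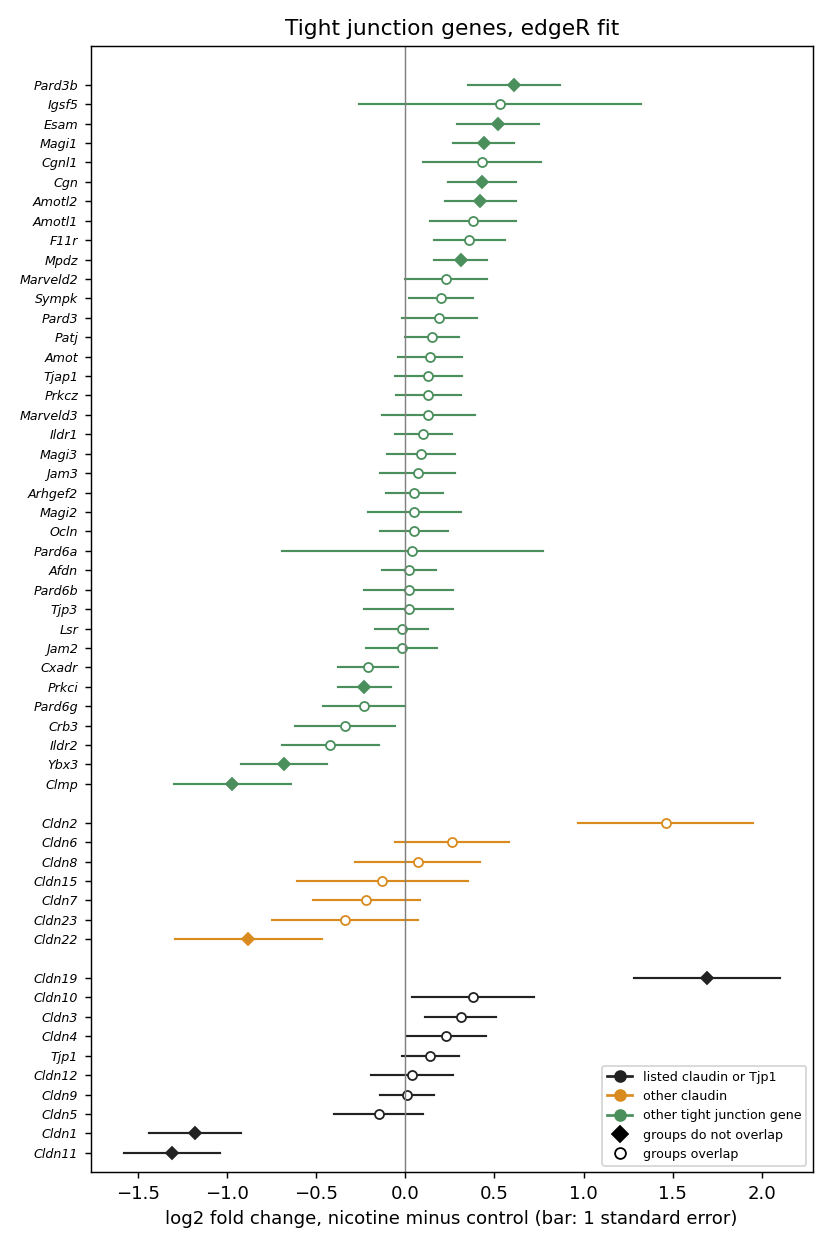
Log2 fold change, nicotine minus control, with a bar of 1 standard error from edgeR for the 9 listed claudins and Tjp1 (black), 7 further claudins that were tested (orange) and other tight junction genes (green). Filled diamonds mark genes whose 3 nicotine and 3 control libraries did not overlap, and open circles those that overlapped. Cldn11 and Cldn1 have the lowest values and Cldn19 the highest value of all genes shown. Unlike the other genes, they were selected on this change, so their place at the ends is not a result.

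Markers of cells that use these claudins were read in the same libraries. In bulk tissue, fewer cells of a type and less RNA per cell cannot be told apart. Of 13 arachnoid and meningeal markers, 11 were lower after nicotine, against 8468 of all 17292 genes tested. The median log2 fold change of the 13 was -0.76, against 0.007 over all genes tested. Aldh1a2 and Zic1 were higher, with log2 fold changes of 0.29 (SE 0.32) and 0.28 (SE 0.68). None of the 13 was called in edgeR or DESeq2, and none was at 0 in all libraries. Of the lower genes, 5 had an unadjusted p under 0.05 (6.14% of all genes tested in either direction). Slc47a1, an organic cation transporter of the arachnoid, was at 10.6, 25.6 and 18.1 CPM in control replicates 1, 2 and 3 and at 9.99, 5.59 and 11.7 CPM in nicotine replicates 1, 2 and 3 (log2 fold change -1.01, SE 0.34, adjusted p = 0.760 from edgeR). Dpp4, a peptidase gene, was at 0.849 to 1.29 CPM in controls and 0.318 to 0.677 CPM after nicotine, without overlap. Like Cldn11, Slc47a1 and Foxc1 were highest in control replicate 2 and lowest in nicotine replicate 2. Most of the other markers were lowest in the same nicotine library but peaked elsewhere. Slc13a4 peaked in control replicate 3 and Aldh1a2 in nicotine replicate 3. The summed level of the 13 markers overlapped, with 349 to 382 CPM in controls and 97.1 to 396 CPM after nicotine. The largest share of this sum came from the prostaglandin D synthase gene Ptgds, at 58.6 CPM in nicotine replicate 2 against 234 to 314 CPM elsewhere. The part of these markers in the values of Cldn1 and Cldn11 was not tested.

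The sum of the oligodendrocyte markers stood out in control replicate 2, but Cnp and Sox10 were not highest in that library. Mbp, a core myelin protein gene, was at 61.4 CPM there and between 12.7 and 23.2 CPM in the other 5 libraries. The 9 markers summed to 138 CPM in control replicate 2, to 69.5 and 70.7 CPM in the other controls and to between 65.9 and 89.8 CPM after nicotine. Mag, Ermn and Opalin were at or below 0.359 CPM in all libraries. Cnp was at 45.7 CPM in control replicate 2, against 57.7 and 52.2 CPM in nicotine replicates 2 and 3. Sox10 was at 0.258, 0.586 and 0.291 CPM in control replicates 1, 2 and 3. In nicotine replicates 1, 2 and 3 it was at 0.912, 1.14 and 0.611 CPM, without overlap. Its log2 fold change was 1.15 (SE 0.44, adjusted p = 0.798 from edgeR). Cldn11, like the sum of the markers, was highest in control replicate 2. Without that library its log2 fold change was -1.11 (SE 0.28), and DESeq2 called none of the 10 genes and 57 of 16825 over all genes. The 6 Schwann cell markers, beside Cldn19, had a median log2 fold change of 0.17, 0 were called, and their sums were 18.6 to 30.6 CPM after nicotine and 21.2 to 23.2 CPM in controls.

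The 6 folliculostellate and stem cell markers summed to 173 to 218 CPM after nicotine and 157 to 184 CPM in controls. Of these 0 were called, and their median log2 fold change was 0.34. The 4 choroid plexus markers, read because that epithelium is rich in Cldn2 and Cldn3, had a median of 0.03 with 0 called, and Ttr, their defining gene, was at or below 0.909 CPM in every library. The plot of claudins and markers sets the levels side by side.

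**Figure D3:**
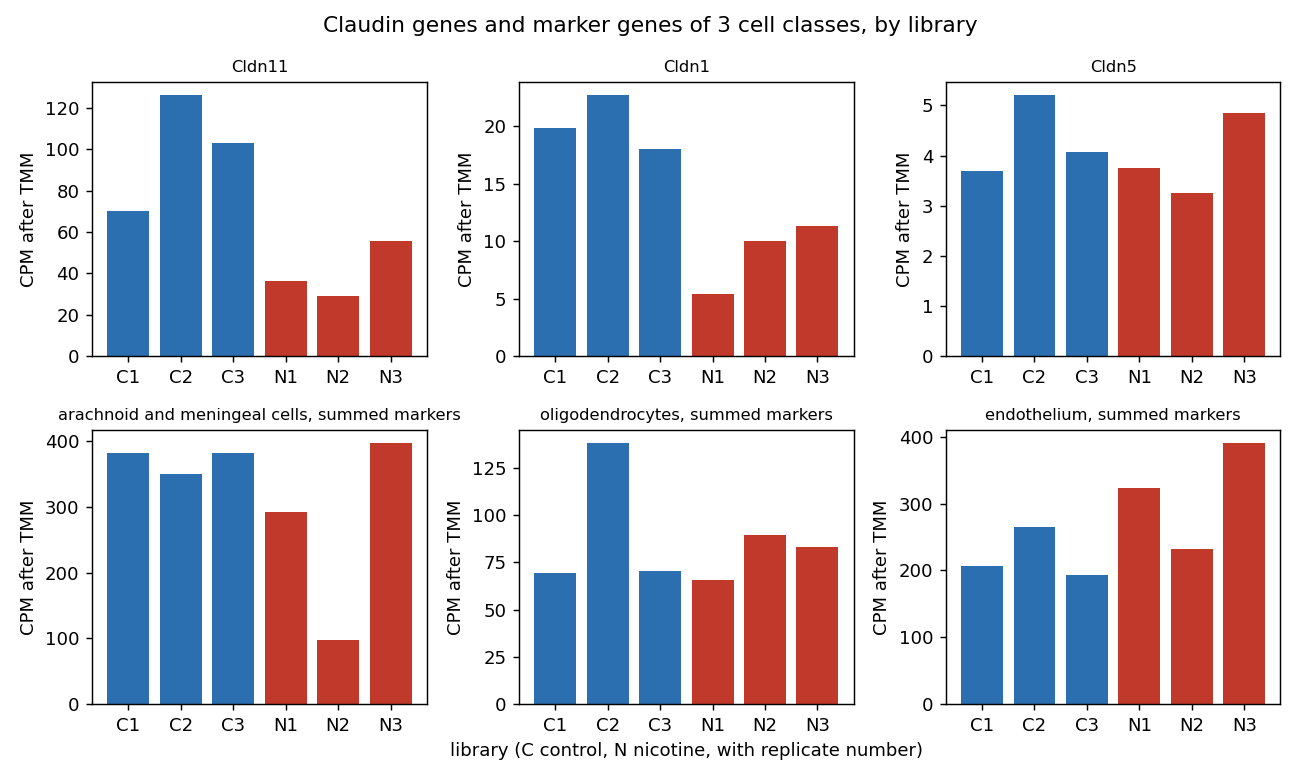
CPM after TMM of Cldn11, Cldn1 and Cldn5 (top) and summed CPM of 13 arachnoid and meningeal, 9 oligodendrocyte and 10 endothelial markers (bottom), 1 bar per library, control in blue and nicotine in red, each axis from 0. Cldn11 and the oligodendrocyte sum are both highest in control replicate 2, and the meningeal sum is lowest in nicotine replicate 2.

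The genes whose library profiles lay nearest to each selected claudin were found among 14505 genes with a mean of at least 1 CPM. Likeness was the root mean square difference of log2 CPM over the 6 libraries, each gene centred on its own mean. With so many candidates and 6 libraries, near matches turn up readily. The claudins were selected on their change and these genes on likeness to them. A shared order of libraries and a shared group difference therefore follow from the choice, and nothing is read from them. For Cldn11, whose own deviation from its mean was 0.76, the nearest were the transporter gene Slc16a9 at 0.09, Sema3c, a secreted guidance semaphorin, at 0.11, and Clec3b, Efemp1 and Thbd at 0.15. Thbd, which encodes thrombomodulin, was at 56.1, 89.5 and 70.6 CPM in control replicates 1, 2 and 3 and at 32.5, 19.4 and 45.3 CPM in nicotine replicates 1, 2 and 3. All 5 have the order of Cldn11, with control replicate 2 highest and nicotine replicate 2 lowest, as their choice by likeness favours.

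For Cldn1, with an own deviation of 0.71, the nearest were the matrix protein gene Hmcn1 at 0.16, the serotonin receptor gene Htr2b at 0.20, Trim30 at 0.22, the noradrenaline transporter gene Slc6a2 at 0.23 and the collagen hydroxylase gene P4ha3 at 0.24. Slc6a2 was at 3.36, 4.80 and 3.94 CPM in control replicates 1, 2 and 3 and at 0.912, 1.45 and 1.60 CPM in nicotine replicates 1, 2 and 3. Nicotine replicate 1 was lowest for each of these genes, as for Cldn1, which the choice by likeness again favours. None of them was also nearest to Cldn11.

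Cldn19 had no match as close. The nearest were Nos3, the endothelial nitric oxide synthase gene, at 0.28, and LOC102554092, Ism2 and Prdm16 at 0.36, against an own deviation of 1.06. Nos3 was at 0.702, 0.775 and 0.264 CPM in control replicates 1, 2 and 3 and at 1.63, 1.5 and 1.7 CPM in nicotine replicates 1, 2 and 3.

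**Figure D4:**
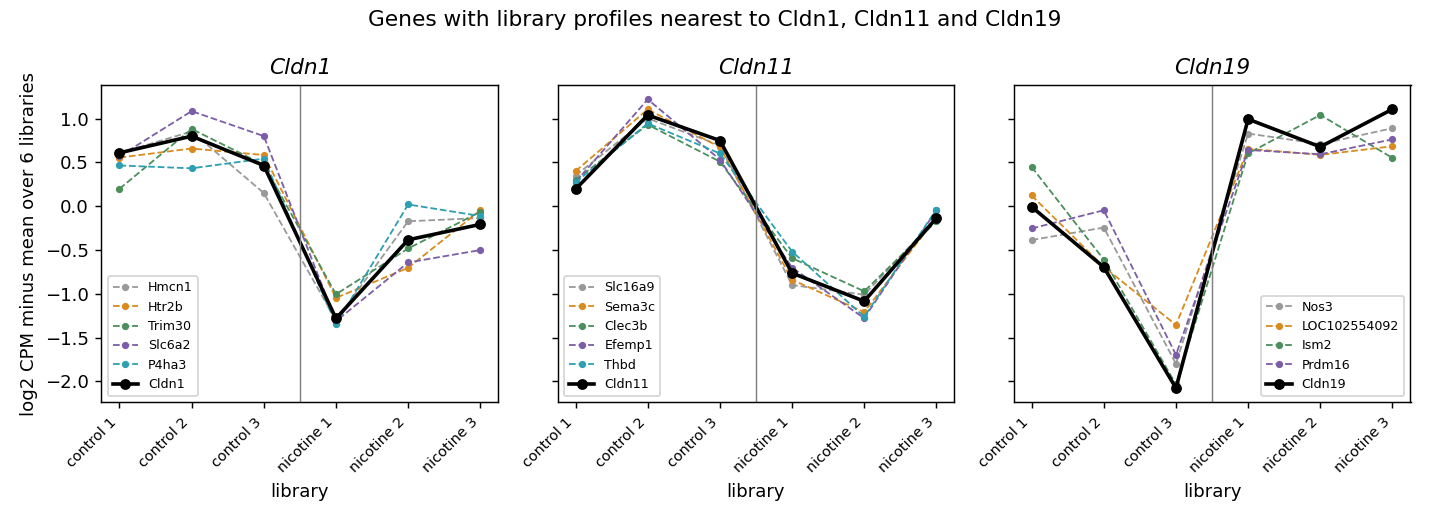
Log2 CPM minus the mean over the 6 libraries (y axis, log2 units) in each library for Cldn1, Cldn11 and Cldn19 (black) and genes nearest to each (coloured), with lines that only join the points of 1 gene. Nicotine replicate 1 is lowest for Cldn1 and its neighbours, nicotine replicate 2 for Cldn11 and its neighbours, and control replicate 3 for Cldn19 and its neighbours. The neighbours were chosen by likeness of profile, so the shared shape follows from the choice.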

How the data were processed

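Pituitary RNA libraries of 3 nicotine and 3 control rats were compared, grouped by GEO's labels. The authors mapped paired, stranded reads to rn7 with HISAT2 2.1.0 and assigned them to RefSeq genes with FeatureCounts. The deposited values are raw counts per gene symbol. The treatment of reads that map to several places, the strand setting and whether reads or pairs were counted are not given in the sources used here, so reads shared between related claudins may be split.

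Calculations used R 4.3.3, edgeR 4.0.16 and DESeq2 1.42.0. Of 33294 symbols, filterByExpr kept 17292. After TMM scaling, edgeR's quasi-likelihood test compared nicotine with control and no covariate, with Benjamini-Hochberg adjustment over all genes tested. The SE is the log2 fold change divided by the square root of F. Log2 CPM used a prior count of 2. The steps were tested on simulated data.

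The genes and lists were chosen with earlier results of these data known. Named genes were the 10 listed, up to 4 per other list by smallest p, the 3 most abundant of a list, and the 5 nearest profiles. Some of these genes are not reported here. Mag, Ermn, Opalin, Ocln, Tjp3 and single markers were named after their values were seen. Planned levels per kilobase were not computed, since exon lengths were not at hand. Alternatives were DESeq2, other scaling, filters and thresholds, thinning, a replicate block and leaving out each library. DESeq2 without each library was added after seeing the data. Depth was 28318383 to 85977002 counts. Same-numbered libraries had deviations correlated at 0.03, -0.20 and -0.08, and the main test did not treat the numbers as pairs. With 3 libraries per group, these correlations do not show that the libraries were unpaired.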

Additional observations from a re-analysis of the deposited data

How the results depend on the processing

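Of the 10 genes, edgeR called 0 with RLE scaling, with no scaling beyond library size, with unfiltered genes, with a minimum of 10 counts per library, with thinning, an adjusted p under 0.05 and without each library in turn, and 0 with the replicate number as a block. DESeq2 called 3. In DESeq2 fits without 1 library, chosen after seeing the data, 0 to 3 were called, with 0 without control replicate 2, where 57 of 16825 genes were called over all. Over all genes these fits called 42 to 188. The 3 genes concerned were selected on this contrast, so these counts say nothing of stability. The further claudins and junction genes had 0 calls throughout, except 1 each in DESeq2, Cldn2 without control replicate 1 and Ybx3 without nicotine replicate 3. Over all genes edgeR called 0, DESeq2 61, library size alone and thinning 1 each, no filter and the replicate block 2 each, and edgeR without 1 library 0 to 9. The cause was not tested.

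The log2 fold changes of Cldn1, Cldn3, Cldn4, Cldn10, Cldn11, Cldn19 and Tjp1 kept their sign in every setting run. Of 190 comparisons over the 10 genes, 13 changed sign, all of genes near 0. Leaving out 1 library put Cldn5 between -0.32 and 0.02, Cldn9 between -0.07 and 0.11 and Cldn12 between -0.29 and 0.22. Cldn5 was at 0.02 without control replicate 2, and at 0.03 there in DESeq2. Cldn9 was at 0 with the replicate block and without control replicate 1, at -0.03 without nicotine replicate 1 and at -0.07 without nicotine replicate 2, with -0.03 and -0.06 for these 2 in DESeq2. Cldn12 was at -0.01 with the replicate block, at -0.29 without nicotine replicate 2 and at -0.04 without control replicate 2, with -0.28 and -0.03 for these 2 in DESeq2. Levels per kilobase and their alternatives were not run. The count of 11 for Cldn19 in control replicate 3 limits its precision.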
